A study of Mus musculus with 10 samples.

Results

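SnoRNA host genes are transcribed as long RNAs whose introns carry small nucleolar RNAs (snoRNAs). Among the 52550 genes of the deposited table, 10 such noncoding hosts were taken by name: Gas5, Snhg1, Snhg3, Snhg4, Snhg5, Snhg6, Snhg8, Snhg12, Snhg15 and Snhg18. All 10 were measured in fibroblasts cultured from mouse embryos (MEFs), with 5 libraries of female and 5 of male cells. Both sexes were of strain C57BL/6, embryonic day 14 and passage 3, and no other treatment or allele is named. Total RNA was depleted of ribosomal RNA before directional libraries were made. Nothing in the labels tells whether the 5 libraries of a sex are separate embryos or cultures, so each p-value is set against a spread between libraries that may be technical.

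After splicing, the intron of a host gene is debranched and trimmed, and the snoRNA inside it is kept in a ribonucleoprotein. Box C/D snoRNAs guide ribose methylation of ribosomal and spliceosomal RNA, and box H/ACA snoRNAs guide pseudouridylation. The spliced exons of many noncoding hosts carry stop codons early in short reading frames and are degraded by nonsense-mediated decay, a surveillance pathway coupled to translation. Several hosts, Gas5 among them, start transcription at a terminal oligopyrimidine (TOP) sequence, a run of C and T that ties their RNA to growth signals in the way of ribosomal protein messages. Gas5 was named for its rise in growth-arrested fibroblasts.

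GENCODE release M21 placed 31 snoRNA genes inside 9 of the hosts, with 10 in Gas5, 8 in Snhg1, 5 in Snhg12, 2 each in Snhg3 and Snhg5, and 1 each in Snhg6, Snhg8, Snhg15 and Snhg18. They carry 29 distinct names, because Snord80 and Snora16a are each annotated in a pair of overlapping entries. No snoRNA annotation of Snhg4 was used here. The following box C/D RNAs from several hosts are shown so that the guide RNAs behind the hosts can be seen. Coordinates are GRCm38 (mm10), sequences are GENCODE's, and capitals mark the C box, searched as TGATGA in the first 30% of the length, and the D box, searched as CTGA in the last 30%.
Snord80 (in Gas5, chr1:161037601-161037681, plus strand): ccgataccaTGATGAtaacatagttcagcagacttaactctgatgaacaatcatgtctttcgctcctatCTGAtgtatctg
Snord47 (in Gas5, chr1:161038082-161038158, plus strand): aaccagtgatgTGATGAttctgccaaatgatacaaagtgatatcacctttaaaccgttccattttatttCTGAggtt
Gm25855 (in Snhg1, chr19:8723993-8724064, plus strand): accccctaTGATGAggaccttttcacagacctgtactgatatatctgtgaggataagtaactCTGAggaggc
Snord50a (in Snhg5, chr9:88521529-88521600, minus strand): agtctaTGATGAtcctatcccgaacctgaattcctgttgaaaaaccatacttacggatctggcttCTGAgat
Snord50b (in Snhg5, chr9:88521797-88521868, minus strand): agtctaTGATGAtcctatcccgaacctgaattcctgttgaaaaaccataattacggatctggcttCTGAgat
Snord87 (in Snhg6, chr1:9942463-9942549, minus strand): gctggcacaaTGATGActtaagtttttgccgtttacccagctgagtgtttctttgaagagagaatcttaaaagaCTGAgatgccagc
Snord99 (in Snhg12, chr4:132310691-132310764, plus strand): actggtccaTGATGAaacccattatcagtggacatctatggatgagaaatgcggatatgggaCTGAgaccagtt
Snord123 (in Snhg18, chr15:32241853-32241923, minus strand): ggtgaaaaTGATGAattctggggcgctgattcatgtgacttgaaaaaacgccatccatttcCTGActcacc

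Both boxes were found on the transcribed strand in 19 of the 31 annotated entries. The same search found them in 20.1% of 1476 other snoRNA genes of GENCODE and in 0.0725% of 139341 stretches of 75 bases at the 5′ ends of other transcripts. Snord50a and Snord50b, both in Snhg5, were identical at 71 of 72 positions, with the single substitution C50A, counted from the 5′ end of Snord50a. A further 7 entries had no such pair of boxes but held ACA within their last 10 bases, against 46.7% of the other snoRNA genes and 12% of stretches of 130 bases at the 5′ ends of other transcripts. Some of these are shown with that ACA in capitals.
Snora24 (in Snhg8, chr3:123507937-123508066, minus strand): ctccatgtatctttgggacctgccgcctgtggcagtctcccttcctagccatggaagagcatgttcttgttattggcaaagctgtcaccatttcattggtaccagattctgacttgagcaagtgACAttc
Snora9 (in Snhg15, chr11:6528033-6528165, minus strand): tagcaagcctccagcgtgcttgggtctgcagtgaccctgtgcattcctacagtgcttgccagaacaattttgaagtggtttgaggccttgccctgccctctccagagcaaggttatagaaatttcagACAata
Snora73a (in Snhg3, chr4:132352775-132352979, minus strand): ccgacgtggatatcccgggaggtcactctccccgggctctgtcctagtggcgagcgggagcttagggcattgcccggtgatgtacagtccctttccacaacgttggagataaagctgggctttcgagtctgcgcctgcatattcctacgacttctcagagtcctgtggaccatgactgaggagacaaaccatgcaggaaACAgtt
Snora73b (in Snhg3, chr4:132352322-132352526, minus strand): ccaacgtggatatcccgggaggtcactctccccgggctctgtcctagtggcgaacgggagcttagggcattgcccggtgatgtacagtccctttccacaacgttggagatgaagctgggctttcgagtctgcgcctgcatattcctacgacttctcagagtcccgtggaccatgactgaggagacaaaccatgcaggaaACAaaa

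Snora73a and Snora73b, copies of an RNA that takes part in cleavage of the ribosomal RNA precursor, were 96.6% identical over 205 bases. They differed by G3A, G54A, A111G, T164C, G203A, T204A and T205A, with Snora73a's base first and positions counted from its 5′ end. These near-identical copies lie in Snhg3, whose reads were mostly not unique, as described further on.

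The snoRNAs themselves were not measured. All 31 had a row in the table and all 31 were listed at 0 total reads in all 10 libraries. Only 88 of 1558 snoRNA rows of the table had any read, so the 0 is not taken as a level. What the libraries measure is the host transcript and what remains of its introns.

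**Figure D1:**
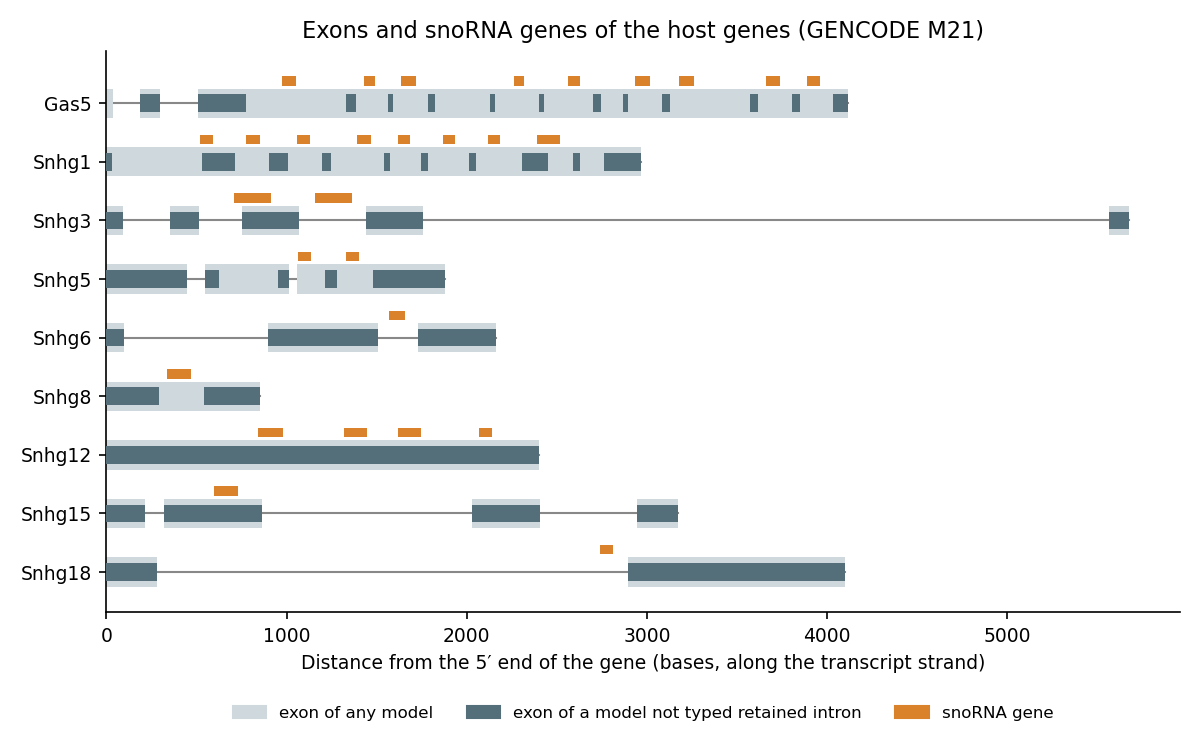
Each row is 1 host gene drawn from its 5′ end (x axis, bases along the transcript strand). Pale boxes are exons of any GENCODE M21 model, dark boxes are exons of models not typed as retained intron, and orange bars are snoRNA genes; Snhg4 is not drawn. In Gas5, Snhg1, Snhg5 and Snhg8 the snoRNA genes lie where only the pale boxes cover the gene, apart from parts of Gm25855 and Snord22 in Snhg1; the M21 models of Snhg12 cover its whole span, unlike the 69.3% that exons cover in the deposited table.

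In mm10, per the deposited table, Gas5 spans chr1:161034422-161038539, Snhg6 chr1:9941959-9944118, Snhg8 chr3:123507552-123508404 and Snhg12 chr4:132308678-132311024. Snhg3 spans chr4:132348014-132353686, Snhg5 chr9:88521050-88522929, Snhg15 chr11:6525591-6528760 and Snhg18 chr15:32240565-32244662. Snhg1 spans chr19:8723475-8726443. Where the annotation draws exons bears on what is counted as an intron read. Exons covered 91.3% of the span of Gas5 and the whole of Snhg1, since 20 of 25 Gas5 models and 14 of 18 Snhg1 models are typed as retained intron. They covered 92.0% of Snhg5, where 3 of 6 models are of that type, and 75% of Snhg4. The cover was 70.8% for Snhg8, 69.3% for Snhg12, 53.1% for Snhg6, 42.9% for Snhg15, 36.3% for Snhg18 and 17.4% for Snhg3. Of the 31 snoRNA genes, 22 lay outside every exon of the M21 models not typed as retained intron, but 27 lay wholly inside the union of all M21 exons. The 3 that lay wholly outside it were Snora73b in Snhg3, Snord87 in Snhg6 and Snord123 in Snhg18. The exon lengths in the table equalled those of GENCODE M21 for 7 of the 9 hosts compared, the exceptions being Snhg8 and Snhg12. Snhg8 has 604 exon bases in the table and 853 in M21, and Snhg12 has 1626 and 2402. So for the snoRNA genes of these hosts the counts inside and outside exons need not hold for the table's exons.

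The starts of the hosts were compared by their longest unbroken run of C and T letters on the transcript strand, counted from 5 bases before to 10 bases after the RefSeq start (GRCm38.p6), where a TOP sequence would lie. RefSeq starts were matched for Gas5, Snhg1, Snhg3, Snhg5, Snhg8, Snhg12, Snhg15 and Snhg18, with a pair of starts for Gas5. Over 32851 starts the median run was 3 letters. Snhg18 had a run of 10, a length reached at 1.7% of all starts, and Snhg12 one of 9, reached at 2.8%. Snhg8 had 7 letters (7.5% of starts) and Snhg1 had 6 (12.8%). The run of Snhg1 goes on past the end of the window, and only the part inside was counted. The downstream start of Gas5 also had 6, while its upstream start had 3, a length reached at 67.5%. Snhg3 had 5 letters, Snhg15 had 4 and Snhg5 had 3. In Snhg5 another run, with 3 letters inside the window, also goes on past its end, so that run is longer than counted. Starts are shown for the hosts with runs of 6 or more, from 10 bases before to 30 bases from the start, with the counted run in capitals.
Gas5, upstream start (chr1:161034591-161034630, plus strand): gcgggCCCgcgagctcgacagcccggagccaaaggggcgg
Gas5, downstream start (chr1:161035156-161035195, plus strand): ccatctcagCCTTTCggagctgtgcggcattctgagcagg
Snhg1 (chr19:8723477-8723516, plus strand): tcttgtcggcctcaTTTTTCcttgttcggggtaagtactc
Snhg8 (chr3:123508307-123508346, minus strand): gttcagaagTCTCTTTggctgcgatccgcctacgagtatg
Snhg12 (chr4:132308668-132308707, plus strand): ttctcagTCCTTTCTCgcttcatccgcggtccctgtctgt
Snhg18 (chr15:32244633-32244672, minus strand): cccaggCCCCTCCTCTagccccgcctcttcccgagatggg

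The libraries held between 30662616 and 45859721 unique gene reads, the female libraries averaging 39664363 ± 3924411 and the male libraries 36113710 ± 4179293 (SD over 5 libraries of each sex; two-sided exact permutation p = 0.206). The intron share of all unique reads was 26.8% ± 1.2 in the female and 25.7% ± 2.1 in the male libraries (exact permutation p = 0.349). The 11 fibroblast markers summed to 23710 to 31640 CPM (reads scaled to 1000000 per library, with TMM factors) in females and 23920 to 30290 CPM in males. The 5 macrophage markers summed to 35.3 to 89.8 CPM in females and 42.3 to 65.6 CPM in males, and every marker examined had reads. Xist was called higher in females and the 4 Y-linked label-check genes higher in males, as the labels have it. In bulk RNA, fewer cells of a type and less RNA per cell cannot be told apart.

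Read per gene, without regard to length, Gas5 was the most abundant host. Gas5 stood at 54.4, 55.8, 64.2, 51.7 and 57.6 CPM in the female libraries, against 52.3, 54.4, 58.2, 48.6 and 53.6 CPM in the male libraries. The sexes overlapped, and female replicate 3 was the highest of the 10. Snhg1 followed at 25.4 ± 2.1 CPM in the 5 female libraries and 24.1 ± 2.8 CPM in the 5 male libraries (SD). Snhg6, Snhg5, Snhg18, Snhg15, Snhg12 and Snhg8 had means over the 10 libraries between 11.7 and 18.6 CPM. Snhg3 and Snhg4 were far lower in unique reads, with 725 and 378 reads over all 10 libraries. Snhg3 had 65, 88, 94, 77 and 68 unique reads in the female libraries, against 72, 78, 36, 48 and 99 in the male libraries. Snhg4 had 29, 27, 44, 36 and 46 in the female libraries, against 33, 38, 20, 52 and 53 in the male libraries, so counting error alone is large for both genes.

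Levels of different genes were compared per exon length, as the CPM of unique exon reads per kilobase of exon. On that scale Snhg8 came first at 16.9 ± 2.4 (SD, n = 10), then Gas5 at 14.4 ± 1.1 and Snhg6 at 13.2 ± 1.2. The ranges of these 3 neighbours overlapped, and Snhg8 lay above Gas5 in 8 of 10 libraries. Snhg5 at 8.59 ± 0.42 and Snhg1 at 8.24 ± 0.78 formed the next step, and the lowest library of Snhg6 lay above the highest of Snhg5. Snhg18 at 5.75 ± 0.98, Snhg12 at 5.52 ± 0.56 and Snhg15 at 5.32 ± 0.55 overlapped one another. Snhg3 at 1.61 ± 0.38 and Snhg4 at 0.269 ± 0.074 were each separated from the gene above by their whole ranges. With total exon reads per kilobase instead, Snhg4 moved to rank 4 at 10.0 ± 1.4 and Snhg3 stood at 4.78 ± 1.36, since their reads were mostly not unique. The exon length used is that of all annotated models together, 3760 bases for Gas5, 2969 for Snhg1 and 604 for Snhg8. In Gas5 and Snhg1 most models are typed as retained intron, so the order depends on the annotation. An order per spliced length was not computed.

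**Figure D2:**
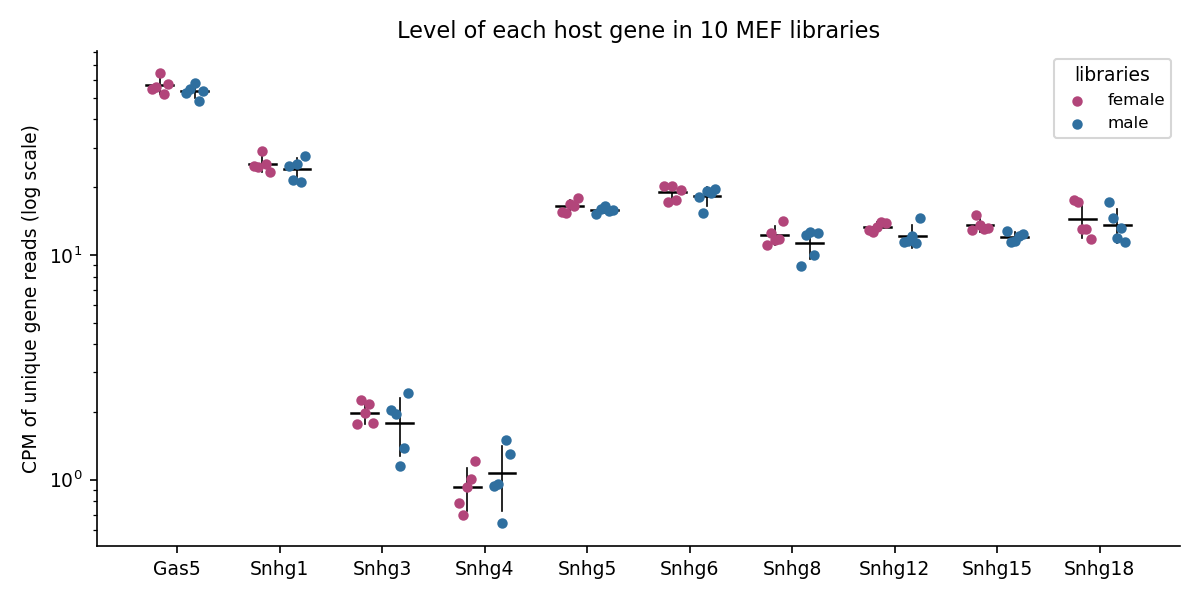
CPM of unique gene reads (y axis, log scale) for each host gene, with 5 female libraries on the left and 5 male libraries on the right of each pair; points are libraries, horizontal bars means and vertical bars SD. The sexes overlap for 9 hosts, and for Snhg15 the 5 female libraries, at 12.9 to 15 CPM, lie above the 5 male libraries, at 11.4 to 12.8 CPM.

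None of the 10 hosts passed the test between the sexes. edgeR's quasi-likelihood test with Benjamini-Hochberg adjustment called 0 of 10 hosts, against 15 of 16602 genes tested (0.0904%). The adjusted p of the hosts ran from 0.894 to 0.999. At an unadjusted p under 0.05 there was 1 host, Snhg15, against 5.55% of all genes; DESeq2 also called 0 hosts, against 0.422% of genes, and also had 1 at that unadjusted level, against 6.0% of genes. The log2 fold change, female minus male, was positive for 9 hosts and negative for Snhg4, with a median of 0.09, beside a median of 0.00 over all genes tested and 52.1% of genes with a positive sign. All 10 had enough reads to be tested.

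Snhg15, which hosts Snora9, had the smallest p. It stood at 12.9, 15, 13.6, 13 and 13.1 CPM in females, against 12.8, 11.4, 11.5, 12.2 and 12.4 CPM in males. The lowest female library lay just above the highest male library, a separation shared by 0.976% of the genes tested. The log2 fold change was 0.16 ± 0.08 (SE), and edgeR's quasi-likelihood test gave an adjusted p of 0.894.

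Among the other hosts the differences were of the size of their errors. Gas5 averaged 56.8 ± 4.7 CPM in females and 53.4 ± 3.5 CPM in males, a log2 fold change of 0.09 ± 0.07 (SE). Snhg12, host of Snora16a, Snora44, Snora61 and Snord99, averaged 13.3 ± 0.6 CPM in females and 12.2 ± 1.4 CPM in males, a log2 fold change of 0.13 ± 0.09. Male replicate 5 alone, at 14.6 CPM, lay above all female libraries, and the other 4 males lay below them. Snhg8, host of Snora24, had a log2 fold change of 0.12 ± 0.11, and Snhg1 had 0.08 ± 0.08. The values were 0.05 ± 0.07 for Snhg5, 0.06 ± 0.08 for Snhg6 and 0.09 ± 0.13 for Snhg18.

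Snhg3 and Snhg4 depended on which reads were counted. In unique reads the log2 fold change of Snhg3 was 0.14 ± 0.20 (SE) and that of Snhg4 was -0.21 ± 0.24. In total reads it was 0.36 ± 0.15 for Snhg3 and 0.18 ± 0.10 for Snhg4, with adjusted p of 0.865 and 0.964 by edgeR's quasi-likelihood test. The authors' deposited table, from their own test, gave folds of 1.29 for Snhg3, 1.13 for Snhg4 and 1.12 for Snhg15, and a false discovery rate of 1.0 for every host. In the authors' deposited table the fold is positive for Xist and negative for Ddx3y, so a positive fold there means higher in females.

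Reads counted as intron reads in the deposited table took very different shares in the 10 hosts. Over all libraries they were 43.4% of unique gene reads in Snhg15, 39.2% in Snhg18, 29.5% in Snhg12, 18.8% in Snhg6, 16% in Snhg3, 12.9% in Snhg8 and 7.80% in Snhg5. They were 1.71% in Gas5, 1.23% in Snhg1 and 0 of 378 unique reads in Snhg4. The median gene tested had 23.1%, so in unique reads 7 hosts lay below it and 3 above. The share depends on how much of a span is annotated as exon, such as 91.3% in Gas5 and 36.3% in Snhg18. Every snoRNA gene of Gas5, Snhg1 and Snhg5 lies inside annotated exons. A low share therefore does not show that little intron RNA was present. In total reads the mean share over the 10 libraries was 30.9% for Snhg3, beside 16.6% in unique reads, and 9.32% for Snhg4, beside 0 in unique reads, so the place of Snhg3 below that median depends on the reads counted. Snhg1 had 116 unique intron reads although the table's exons cover its whole span, and how those reads were assigned is not given in the sources used here.

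Per kilobase the picture differed, and in some hosts few bases lie outside exons. Intron reads per kilobase outside exons reached 97.6% of exon reads per kilobase in Snhg5 and 94.3% in Snhg12. They reached 57.6% in Snhg15, 36.8% in Snhg18, 36.0% in Snhg8 and 26.2% in Snhg6. Gas5 had 18.2% and Snhg3 4.01%. For Snhg5 this rests on 150 bases, for Snhg8 on 249 and for Gas5 on 358 bases outside exons. Snhg1 had 116 unique intron reads with 0 bases outside exons, so intron reads need not lie in the bases counted here. These densities are therefore uncertain, most of all where few bases lie outside exons.

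Reads that cross an exon junction come from spliced RNA. Of unique exon reads, 62.6% ± 3.8 crossed a junction in Gas5 (SD, n = 10), which has many short exons, and 86.1% ± 7.0 in Snhg3. The share was 52.0% ± 3.0 in Snhg8, 46.4% ± 2.6 in Snhg1 and 52.9% ± 15.2 in Snhg4, the last on 208 reads. It was 37.1% ± 2.1 in Snhg6, 32.9% ± 3.3 in Snhg15, 23.0% ± 2.3 in Snhg5, 19.8% ± 4.1 in Snhg12 and 9.02% ± 1.79 in Snhg18. The median gene had 21.8%, and 8 hosts lay above it. The share depends by construction on the number and length of a gene's exons, so it does not rank the hosts by splicing. For Snhg3 and Snhg4 it also covers only the unique part, 609 of 2173 exon reads and 378 of 16845. Whether junction reads were unique more often than other exon reads was not tested.

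**Figure D3:**
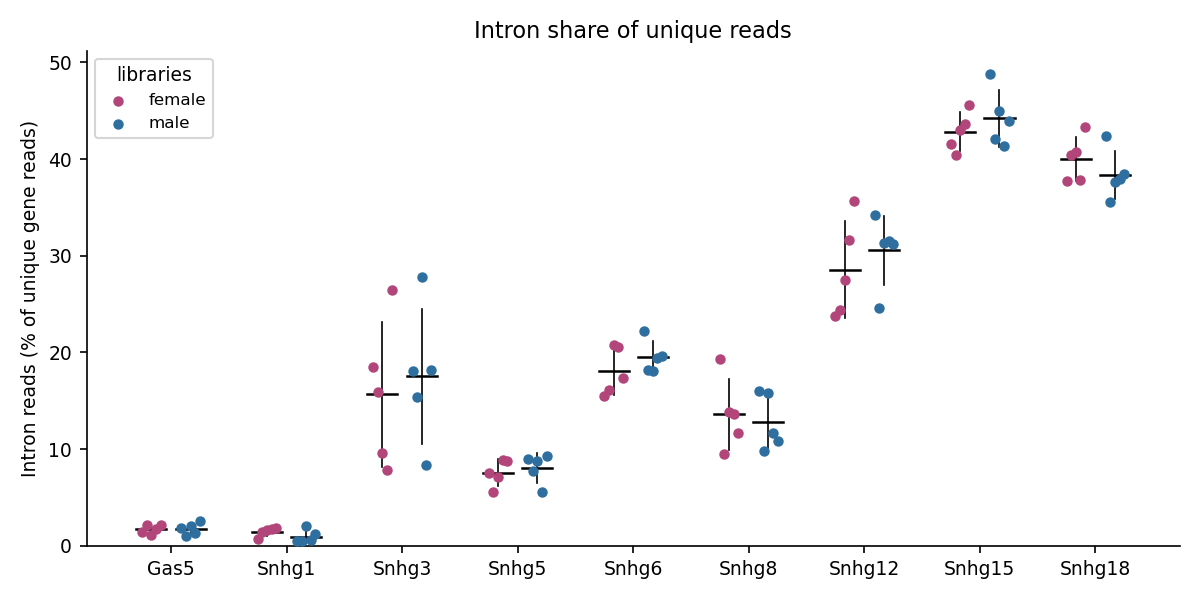
Intron reads as a percentage of unique gene reads (y axis) for 9 host genes, with 5 female libraries on the left and 5 male libraries on the right of each pair; horizontal bars are means and vertical bars SD, and Snhg4, with 0 unique intron reads, is left out. Snhg15 and Snhg18 stand highest and Gas5 and Snhg1 lowest, and the sexes overlap for all 9. The share depends on how much of each gene is annotated as exon.

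The intron share did not pass the test between the sexes in any host. limma on the log2 ratio of intron to exon reads, with each library's median removed, called 0 of the 9 hosts that could be fitted, against 3 of 11711 genes (0.0256%). No host had an unadjusted p under 0.05, against 3.71% of all genes, and DESeq2 does not apply to a ratio. The log2 change, female minus male, was negative for 6 hosts and positive for 3, with a median of -0.12, beside 50.3% of genes with a negative sign. Snhg1 had the widest value, 0.71 ± 0.50 (SE), with an intron share of 1.46% ± 0.47 in the 5 female and 0.946% ± 0.681 in the 5 male libraries (SD). In Snhg15 intron reads made up 42.8% ± 2.0 in females and 44.2% ± 2.9 in males, and in Snhg12 28.6% ± 5.0 in females and 30.6% ± 3.6 in males. Adjusted p was 0.999 or higher for all 9 by limma.

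The junction share of Snhg5, looked at after its values were seen, did not overlap between the sexes. Females had 24.6% ± 1.5 and males 21.3% ± 1.6 (SD over 5 libraries each), the lowest female library being at 23.5% and the highest male library at 23.1%. The exact permutation p was 0.00794, the smallest that 5 against 5 libraries can give on both sides, and 0.842 after adjustment over 9370 genes with a mean of at least 30 junction reads. Of those genes, 0.918% did not overlap. The other 7 hosts in that set had exact permutation p of 0.198 or more.

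Covariation among the hosts over the 10 libraries was loose. Of 45 pairs, 29 had a positive Pearson r and 16 a negative one on log2 CPM, and the median was 0.16, beside 0.00 for pairs of all genes tested. No pair had an adjusted p under 0.05, with the smallest adjusted permutation p at 0.567 for Pearson's r and 0.657 for Spearman's rho. With each sex's mean removed, the median was 0.01, and in total reads it was 0.31. The 8 hosts with a mean of at least 5 CPM had a median of 0.27, and 0.35 without Snhg18, a set chosen after the values were seen.

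The strongest positive pair was Snhg5 and Snhg8, which share no chromosome. Pearson's r was 0.66 (permutation p = 0.0430, adjusted 0.567) and Spearman's rho 0.50 (permutation p = 0.144, adjusted 0.657). It was 0.53 without the 2 libraries farthest from the median of Snhg5, 0.65 within females and 0.87 within males. Snhg1 and Snhg12 had r = 0.61 (permutation p = 0.0597, adjusted 0.567) and rho = 0.66 (permutation p = 0.0437, adjusted 0.657), but r was -0.14 within females and 0.78 within males. Gas5 and Snhg1, the hosts with the most snoRNAs, had r = 0.58 (permutation p = 0.0750, adjusted 0.567) and rho = 0.27 (permutation p = 0.447, adjusted 0.832). Without the 2 libraries farthest from the median of Gas5 r was -0.24, so the relation rests on those libraries, although r was 0.60 within females, 0.51 within males and 0.73 over unique exon reads.

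Over the 10 libraries Snhg18, host of Snord123, was mostly negatively correlated with the others. It stood at 17.5, 17.2, 13, 13 and 11.7 CPM in females, against 17.1, 14.6, 11.9, 13.2 and 11.4 CPM in males. The 4 highest libraries were replicates 1 and 2 of each sex and the lowest of each sex was replicate 5, while the labels do not say that a number links libraries. Snhg5 stood at 15.5, 15.3, 16.8, 16.5 and 18 CPM in females, against 15.2, 16, 16.5, 15.7 and 15.8 CPM in males, a far narrower spread. The r of Snhg18 was negative with 7 of the other 9 hosts, and with Snhg5 it was -0.69 (permutation p = 0.0220, adjusted 0.567) and rho was -0.70 (permutation p = 0.0305, adjusted 0.657). That pair kept r = -0.74 without 2 libraries, -0.95 within females and -0.69 within males. Over unique exon reads alone it was -0.42. With the mean of each replicate number removed, an alternative added after seeing the data, r was -0.05. So the relation with Snhg5 was not seen between libraries of the same number. With that removal Snhg18 had r = 0.96 with Snhg15, 0.74 with Snhg6, 0.56 with Gas5 and 0.42 with Snhg1. The value was 0.41 with Snhg12, 0.35 with Snhg3, 0.04 with Snhg8 and -0.17 with Snhg4. The mostly negative sign of Snhg18 was therefore not kept under that alternative. The permutation p-values treat the 10 libraries as independent of each other. The median r with the other hosts was -0.29 for Snhg18 and -0.13 for Snhg4, beside 0.41 for Snhg12 and 0.35 for Snhg1.

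**Figure D4:**
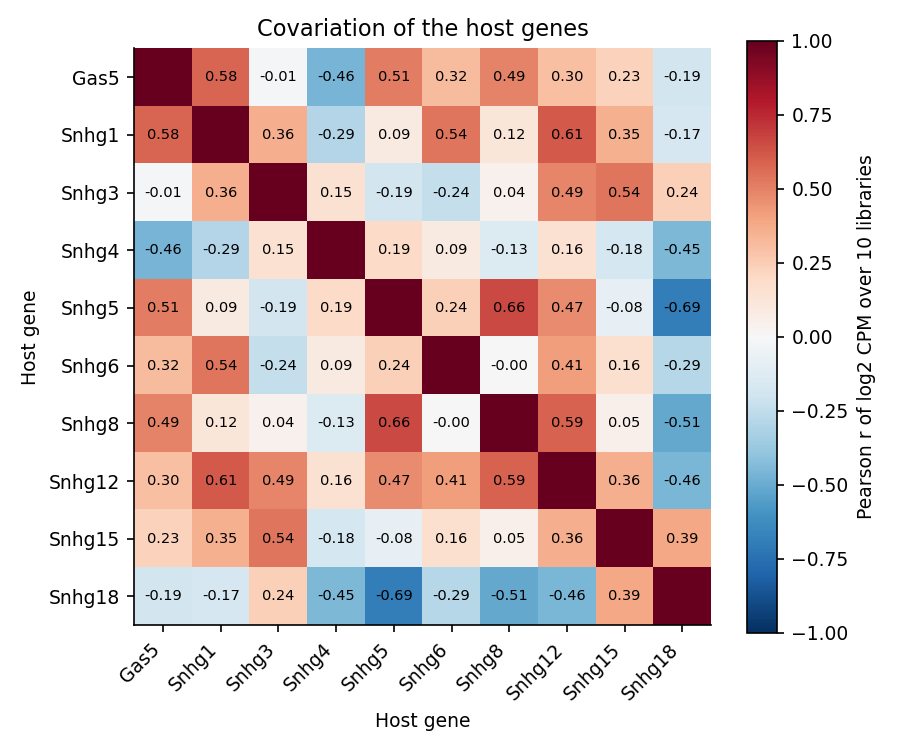
Pearson r of log2 CPM over 10 libraries for each pair of host genes (both axes), with red for positive and blue for negative values. Most cells among Gas5, Snhg1, Snhg5, Snhg6, Snhg8 and Snhg12 are red. Those of Snhg18 with these hosts are blue, down to -0.69 with Snhg5, and no pair passed adjustment over the 45. With replicate-number means removed, which is not drawn, r of Snhg18 with these hosts ran from -0.05 with Snhg5 to 0.74 with Snhg6.

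The genes whose log2 CPM was most like the mean of the 10 standardised hosts, among genes of at least 10 CPM, were Endov (r = 0.91 over 10 libraries), Nexn (0.91), Cfdp1 (0.91), Nol10 (0.89) and Hnrnph1 (0.88). These are the highest of many genes and are given as a description. The mean of the standardised hosts ranged from 0.07 to 0.64 in females and from -0.66 to 0.40 in males, male replicate 5 being the only male above 0.

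Genes of the pathways around the hosts were read from the same fit, and none was called. Of 13 tested genes listed as noncoding snoRNA hosts outside the 10, 10 had a positive log2 fold change, with a median of 0.10. That list also holds Taf1d, which codes for a protein, Mirg, a microRNA host, and Rnu12, a spliceosomal RNA. 2410006H16Rik had 0.15 ± 0.07 (SE) and Zfas1, another TOP host, 0.13 ± 0.06, with adjusted p of 0.914 and 0.915 by edgeR's quasi-likelihood test. Of 41 protein-coding hosts, 35 were positive with a median of 0.07, and the smallest p was that of Rps13, at 6.76 ± 0.92 CPM in females and 5.41 ± 0.39 CPM in males. Its adjusted p was 0.670 by edgeR's quasi-likelihood test, and only 3.29% of its reads were unique. The 16 TOP genes of translation had 13 positive values with a median of 0.06. The lists overlap, since Eef2, Eef1b2, Tpt1 and Rack1 of the TOP genes are also among the protein-coding hosts. So are Nop56, Nop58 and Dkc1, core proteins of snoRNA particles. Of all genes tested, 52.1% had a positive sign. Genes of a list can vary together over the libraries, so the signs of the hosts and of the lists need not be independent.

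No gene for the proteins that build snoRNA particles was called either. Of the 8 core protein genes 6 were positive, with a median of 0.06; Fbl, the methyltransferase of box C/D particles, had 0.12 ± 0.08 (SE), and Gar1, a box H/ACA protein, 0.11 ± 0.09. Of the 11 assembly factors 10 were positive, with a median of 0.09; Nufip1, an adaptor of box C/D assembly, had 0.16 ± 0.06 with an adjusted p of 0.820 by edgeR's quasi-likelihood test. Of the 10 genes of nonsense-mediated decay 8 were positive, with a median of 0.04, and Upf3a, one of its core factors, had 0.16 ± 0.06 with an adjusted p of 0.752. Of the 10 nearest protein-coding neighbours 7 were positive, with a median of 0.05. The smallest p among them was that of Myo1g, an unconventional myosin, at 1.04 ± 0.31 CPM in females and 0.624 ± 0.177 CPM in males (SD), a log2 fold change of 0.73 ± 0.25 (SE) with an adjusted p of 0.670 by edgeR's quasi-likelihood test. Next was Rcc1, which shares exon sequence with Snhg3 and had 0.20 ± 0.08 with an adjusted p of 0.816.

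Covariation within these lists is given as a description. The median pairwise r was 0.53 among the core proteins, 0.54 among the TOP genes, 0.34 among the assembly factors and 0.26 among the protein-coding hosts. It was 0.00 among the 13 genes listed as other noncoding hosts. The 10 hosts, at 0.16, stood near the decay factors, at 0.17.

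Most reads on Snhg3 and Snhg4, Snhg4 lying at chr18:35553371-35558316, also matched elsewhere. Unique reads made up 23.5% of 3088 total gene reads on Snhg3 and 2.04% of 18548 on Snhg4, against at least 91.8% for the other 8 hosts and a median of 98.7% over tested genes. Snhg3 shares 135 exon bases with Rcc1 in the same sense and 705 with Gm17300, a noncoding gene on the opposite strand. Of its 982 exon windows of 40 bases, 56.1% were found antisense in another gene's transcript, mostly Gm17300. The exons of Gm17300 lie opposite all 205 bases of Snora73b and 175 of those of Snora73a. How the counting treated strand is not given in the sources used here, so reads of Snhg3 and of Gm17300 cannot be told apart.

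Non-unique reads of Snhg3, as CPM of total gene reads, were 7.16, 6.49, 6.90, 4.35 and 4.44 in females, against 3.74, 4.01, 4.05, 4.25 and 6.05 in males. Those of Snhg4 were 49.99, 45.7, 44.0, 34.8 and 36.4 in females, against 34.3, 38.6, 38.8, 37.0 and 40.7 in males. Female replicates 1, 2 and 3 and male replicate 5 were the 4 highest for both genes, and the sexes overlapped for both.

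The non-unique reads of these 2 hosts, on chromosomes 4 and 18, were high and low in much the same libraries. These relations were looked at after their values were seen, so the correlations over the 10 libraries are a description, with no test. Pearson's r was 0.90 and Spearman's rho 0.77, and r was 0.82 without the 2 libraries farthest from the median, 0.97 within females and 0.74 within males. In unique reads both were 0.15. The non-unique reads had r = 0.33 with the unique reads of the same gene for Snhg3 and -0.49 for Snhg4 (rho = 0.07 and -0.54). Values of Gm17300 are not set beside these, since its reads and those of Snhg3 cannot be told apart.

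The total reads of 6 short noncoding RNAs, also chosen after values were seen, are described in the same way. Scarna2, a Cajal body RNA with its own promoter, had r = 0.84 with Snhg4's non-unique reads (rho = 0.94) and 0.81 with those of Snhg3 (rho = 0.79). Its r within females was 0.94 with Snhg4 and 0.90 with Snhg3, and within males 0.92 with Snhg4 and 0.74 with Snhg3. Rny1, a Y RNA, had r = 0.91 with Snhg4 (rho = 0.92) and 0.78 with Snhg3 (rho = 0.72). Rny3, another Y RNA, had 0.77 with Snhg4 (rho = 0.73) and 0.70 with Snhg3 (rho = 0.67). Scarna2 was the one whose r stayed above 0.7 with both hosts within each sex.

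The other 3 RNAs each had r under 0.5 with Snhg3 within males. Rn7sk, the RNA that holds the elongation factor P-TEFb inactive, had r = 0.84 with Snhg4 (rho = 0.73) and 0.77 with Snhg3 (rho = 0.79), but within males 0.49 with Snhg4 and 0.34 with Snhg3. Rmrp, the RNA of ribonuclease MRP, had 0.76 with Snhg4 (rho = 0.81) and 0.66 with Snhg3 (rho = 0.61), but 0.18 with Snhg3 within males. Rpph1, the RNA of ribonuclease P, had 0.33 with Snhg4 (rho = 0.38) and 0.03 with Snhg3 (rho = 0.08). Within females Rpph1 had r = 0.85 with Snhg4 and 0.78 with Snhg3, and within males -0.05 with Snhg4 and -0.49 with Snhg3. Whether these values differ between the sexes was not tested. Matr3, the protein-coding neighbour of Snhg4 whose reads were also partly not unique, had r = 0.00 with Snhg4's non-unique reads (rho = 0.01). All measures share the library total as their denominator, and the part of small-RNA recovery in the total-read levels of Snhg3 and Snhg4 was not tested.

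**Figure D5:**
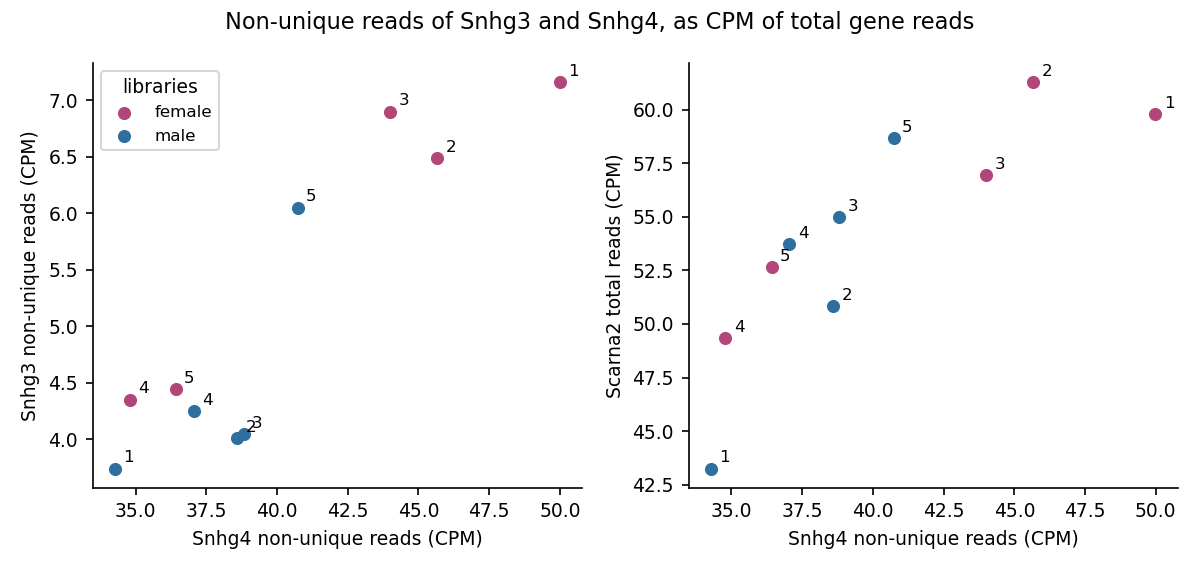
Non-unique reads of Snhg4 as CPM of total gene reads (x axis) against non-unique reads of Snhg3 (left panel) and total reads of Scarna2 (right panel), also as CPM; points are libraries labelled by replicate number, coloured by sex. Both panels run from lower left to upper right, with r of 0.90 and 0.84, and female replicates 1, 2 and 3 and male replicate 5 at the upper end.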

How the data were processed

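RNA was sequenced from 10 MEF libraries, 5 female and 5 male, grouped by the sex label. The authors deposited 1 table of whole-number counts per gene and library, not normalized, per the file headers, which separate unique from total reads and exon, intron and junction reads; 70 other columns of per-library values were not used. The deposited p-value, false discovery rate and fold change come from the authors' own test. Per the submitters' processing notes the genome build was mm10; for the aligner and the counting rules the sources used here give nothing. The hosts and gene lists were chosen with earlier results of these data known. The named genes are all 10 hosts, up to 4 genes of each list with the smallest p, the 5 genes most like the hosts' mean, annotated snoRNAs and markers; others were chosen after their values were seen.

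Unique gene reads were fitted over the whole table with edgeR 4.0.16 in R 4.3.3 (TMM, filterByExpr with a minimum count of 10, robust quasi-likelihood fit, Benjamini-Hochberg adjustment, threshold 0.05), which left 16602 genes. Intron to exon ratios, as log2 with 0.5 reads added to each part, were fitted with limma 3.58.1 over genes with a mean of at least 10 reads of each kind. Correlations used log2 CPM with a prior count of 0.5 and 100000 resamples in scipy 1.17.1. Both fits were tested on simulated data with 200 changed genes. Alternatives included DESeq2 1.42.0, other filters and read types, a replicate block and leaving out each library; total exon reads, total intron reads and correlations without replicate-number means were chosen after seeing the data. No 2 libraries of the same sex agreed within sampling noise.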

Additional observations from a re-analysis of the deposited data

Results flagged for a closer look

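In 2 of 58 groups of 5 libraries, 1 library stood apart from the other 4 by a Dixon gap test, where chance gives about 2.9. Snhg12 was at 14.62 CPM in male replicate 5, against 11.29 to 12.08 CPM in the other male libraries. Snhg3 was at 8.1 CPM of total gene reads in the same library, against 5.042 to 5.657 in the other males.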

How the results depend on the processing

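No host was called by sex under any alternative fit of level or of intron to exon ratio, leaving out each library included. Direction was less stable. Snhg4's log2 fold change became 0.18 with total gene reads, 0.19 with total exon reads and 0.11 with total intron reads. With unique intron reads those of Snhg3, Snhg5 and Snhg6 became -0.053, -0.060 and -0.097, and with total intron reads those of Snhg5 and Snhg6 became -0.056 and -0.095. Leaving out 1 library gave Snhg6 a range of -0.0001, without male replicate 2, to 0.086. The other 9 kept their sign, at 0.036 to 0.12 for Gas5, 0.025 to 0.13 for Snhg1, 0.02 to 0.27 for Snhg3, -0.34 to -0.064 for Snhg4, 0.019 to 0.073 for Snhg5, 0.048 to 0.16 for Snhg8, 0.11 to 0.21 for Snhg12, 0.12 to 0.19 for Snhg15 and 0.0092 to 0.18 for Snhg18. Leaving out 1 library gave log2 ratio changes from -0.23 to 0.14 for Gas5, positive at 0.14, 0.0002 and 0.08 without female replicate 3, male replicate 3 and male replicate 5. The ratio of Snhg1 ran from 0.43 to 1.03. For Snhg8 the ratio changes ran from -0.12 to 0.13, negative at -0.12, -0.04 and -0.03 without female replicate 1, male replicate 2 and male replicate 5. The median pairwise r was 0.23 with unique exon reads, 0.31 with total gene reads and 0.012 with sex means removed, 0.26 with replicate-number means removed, and 0.12 to 0.22 when 1 library was left out. By total exon reads per kilobase 6 of 10 hosts kept their rank. The causes were not tested. Same-numbered female and male libraries correlated at 0.06 to 0.39 in their deviations, and the same number was the best match for replicates 1, 3 and 5. That is a hint of pairing from the data, but 1 of 5 correlations was under 0.1 and the labels link no numbers, so no block was used for the values reported. The replicate block called 0 hosts in level and 0 in ratio, and 43 genes against 15 in level, and the SE of Snhg18 was 0.073 with it and 0.13 without. Snhg3 and Snhg4 have the fewest unique reads, which limits their precision.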
